A study of Mus musculus with 10 samples.

Results

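The metallothioneins and zinc transporters of mouse liver were examined as 9 of the 24421 genes listed in the count table: Mt1, Mt2, Mtf1, Slc39a14, Slc39a8, Slc39a7, Slc30a1, Slc30a7 and Slc30a10. All 9 were among the 11092 genes with enough counts to be tested. The genes were chosen by symbol after results of the TM5614 against Chow comparison were known, so their differences between the groups are given as a description, with no test. Livers came from male wild-type C57BL/6 mice (C57BL/6J in the study's methods) fed ad libitum and aged 21 weeks. The Chow group (n = 5 mice) ate standard chow alone, and the TM5614 group (n = 5 mice) ate chow containing TM5614, an orally active small-molecule inhibitor of plasminogen activator inhibitor-1 (PAI-1), at 20 mg/kg/day for 10 days. The comparison asks how short-term PAI-1 inhibition altered hepatic gene expression. Libraries are named by group and replicate, and each is a separate mouse.

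Metallothioneins are small cysteine-rich proteins that bind zinc and copper, and in liver they form a store that is filled and emptied as metal supply changes. MTF1 senses free zinc and switches on metallothionein genes and the exporter gene Slc30a1 through short metal response elements in their promoters, while inflammatory cytokines and glucocorticoids also raise metallothionein transcription. ZIP proteins (Slc39 genes) bring metal into the cytosol, and ZnT proteins (Slc30 genes) move it out of the cell or into organelles.

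Promoters of 4 of the genes are shown because they hold the letters of the metal response element core and belong to the genes whose levels differed most (Mt1, Mt2 and Slc30a10) and to the exporter gene that MTF1 is known to control (Slc30a1). Each is 300 bases of the RefSeq annotation of GRCm38.p6, from 250 bases before the transcription start to 50 after it, on the plus strand. They lie at chr8:94178839-94179138 for Mt1, chr8:94172368-94172667 for Mt2, chr1:191906531-191906830 for Slc30a1 and chr1:185454598-185454897 for Slc30a10. Capitals mark TGCACNC or TGCGCNC read on either strand.

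Mt1: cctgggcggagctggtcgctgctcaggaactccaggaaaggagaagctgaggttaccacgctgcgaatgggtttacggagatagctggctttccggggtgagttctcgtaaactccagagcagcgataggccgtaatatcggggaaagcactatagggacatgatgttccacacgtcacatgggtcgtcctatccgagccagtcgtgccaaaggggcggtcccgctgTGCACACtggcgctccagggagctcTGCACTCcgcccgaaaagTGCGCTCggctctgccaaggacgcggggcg
Mt2: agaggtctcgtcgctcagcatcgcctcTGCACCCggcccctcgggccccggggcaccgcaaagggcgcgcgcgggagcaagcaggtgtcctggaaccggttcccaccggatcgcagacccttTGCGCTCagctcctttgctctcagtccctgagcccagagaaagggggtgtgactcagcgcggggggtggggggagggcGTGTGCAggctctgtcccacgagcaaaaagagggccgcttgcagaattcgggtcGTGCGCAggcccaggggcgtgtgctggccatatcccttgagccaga
Slc30a1: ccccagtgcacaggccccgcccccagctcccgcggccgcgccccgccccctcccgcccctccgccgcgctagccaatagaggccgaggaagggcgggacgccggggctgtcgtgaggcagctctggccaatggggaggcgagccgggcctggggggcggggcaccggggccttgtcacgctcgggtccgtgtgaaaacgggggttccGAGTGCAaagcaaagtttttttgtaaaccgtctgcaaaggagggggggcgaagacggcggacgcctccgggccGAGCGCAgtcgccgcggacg
Slc30a10: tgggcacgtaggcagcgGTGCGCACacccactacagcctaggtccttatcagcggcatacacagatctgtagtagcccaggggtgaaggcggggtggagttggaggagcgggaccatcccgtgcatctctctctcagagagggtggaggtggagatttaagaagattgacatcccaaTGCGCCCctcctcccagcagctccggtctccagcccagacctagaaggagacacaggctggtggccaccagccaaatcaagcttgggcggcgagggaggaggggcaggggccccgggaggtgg

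The Mt1 promoter held 3 matches to the core and the Mt2 promoter held 4. Slc30a1 held 2, and Slc30a10 held 3, of which 2 overlap and read the same letters on opposite strands. Among 32851 promoters of this length, 25.7% held at least 1 match, 7.11% at least 2, 1.97% at least 3 and 0.517% at least 4. No match was present in the windows of Mtf1, Slc39a7 and Slc30a7, and 1 of the 2 Slc39a8 windows held 1. Slc39a14 was not examined for motifs. A match is a description of letters and not of a bound site. The counts hold for these RefSeq windows alone, and a start placed elsewhere would give another window. For Mt2, the window ends at base 94172667, whereas the GENCODE annotation used for gene coordinates starts the gene at 94172664.

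Library totals ran from 6398335 to 10874955 counts. Hepatocyte markers summed to 119282-141081 CPM (counts scaled to a common library size) in Chow and 113273-130755 CPM in TM5614. Skeletal muscle markers summed to 3760 CPM in TM5614 2, to at most 73.5 CPM in the other TM5614 libraries and to at most 34.9 CPM in Chow. TM5614 3 also held muscle transcripts, with 194 counts of Acta1 against at most 1 in any Chow library. In Chow 2, GC content and gene length explained 46.0% of how its genes departed from the median of all libraries, compared with 0.762-11.5% in each other library. An unadjusted p under 0.05 in edgeR was found for 2263 of the 11092 genes tested. Of the tested genes, 4.50% passed an adjusted p of 0.05 in edgeR, with 2.77% lower and 1.73% higher in TM5614, and 8.93% had groups that did not overlap in CPM. Of the 9 genes, 2 passed that threshold (Mt1 lower and Slc30a10 higher) and 1 had groups that did not overlap. Because the genes were chosen from this same contrast, nothing is read from those counts. In whole liver, fewer cells of a type and less RNA per cell cannot be told apart.

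**Figure D1:**
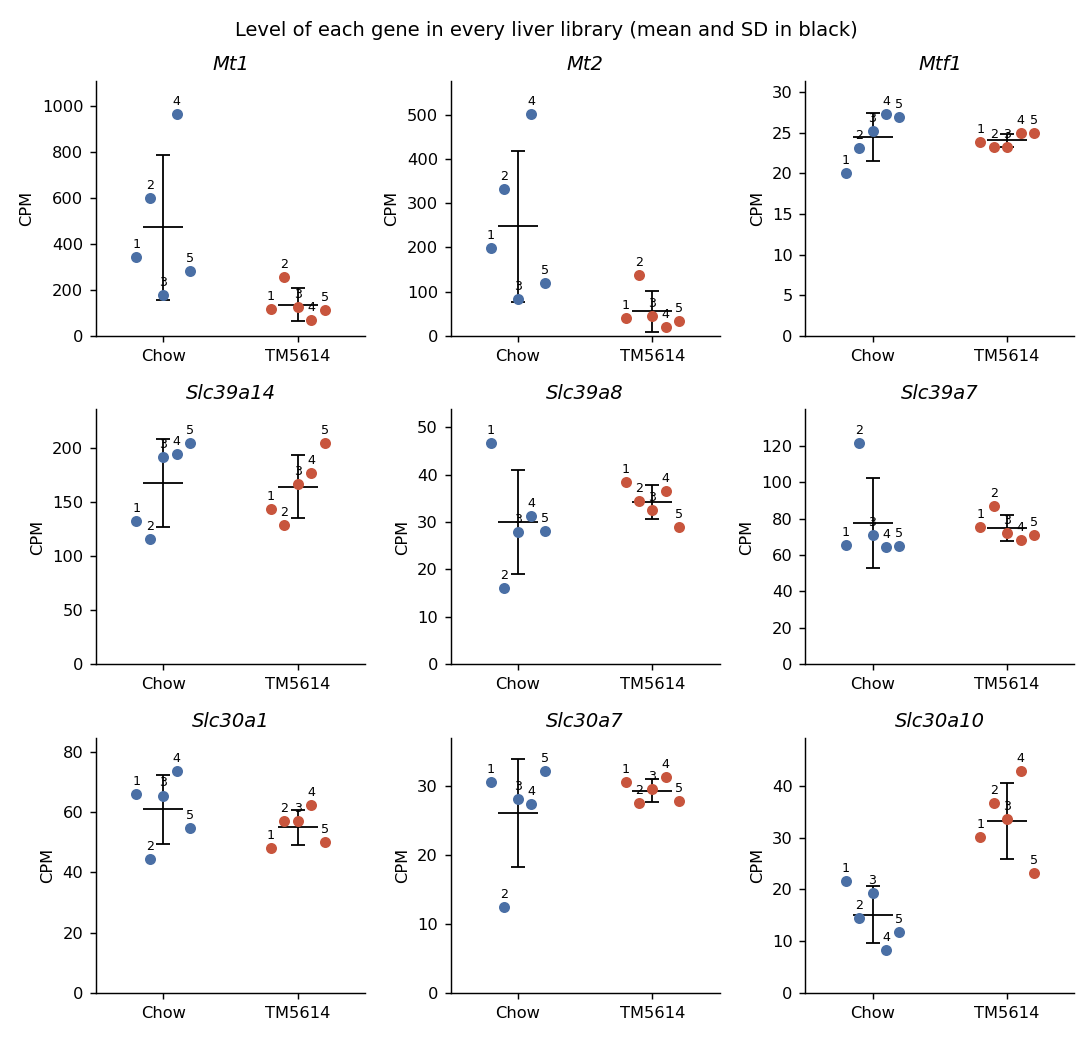
Level of each gene in the 5 Chow and 5 TM5614 livers, in CPM on linear axes from 0; points are libraries labelled by replicate, and black marks give the mean and SD. Mt1 and Mt2 lie lower in TM5614 except in TM5614 2, and every TM5614 point of Slc30a10 lies above every Chow point.

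Of the metallothionein genes tested, Mt1 passed the edgeR threshold as lower in TM5614 and Mt2 did not pass, but both lay close to it. Both passed in DESeq2 and in limma-voom with sample quality weights, so the edgeR calls do not set Mt1 and Mt2 apart. Mt1 (chr8:94179082-94180327, plus strand, GRCm38), a main hepatic metallothionein gene, was present at 345, 600, 178, 965 and 281 CPM in Chow 1 to 5 and at 116, 257, 127, 67.9 and 113 CPM in TM5614 1 to 5. All TM5614 libraries except TM5614 2 lay below every Chow library, and TM5614 2 lay above Chow 3 alone. The means were 474 ± 315 CPM in Chow and 136 ± 71.3 CPM in TM5614 (SD, n = 5), a log2 fold change of -1.80 with a standard error of 0.45. Chow was thus 3.47-fold higher on the fitted scale. Within a group the highest library exceeded the lowest 5.41-fold in Chow and 3.79-fold in TM5614.

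Mt2, which encodes the second liver metallothionein and lies beside Mt1 (chr8:94172664-94173568, plus strand), was present at 199, 333, 84.5, 501 and 120 CPM in Chow 1 to 5. In TM5614 1 to 5 it stood at 40.1, 137, 45.6, 19.4 and 34.5 CPM. The groups overlapped through TM5614 2, which exceeded Chow 3 and Chow 5, whereas the other TM5614 libraries lay below every Chow library. The log2 fold change was -2.16 with a standard error of 0.57, and Mt2 did not pass the threshold set over all genes.

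In uncorrected CPM, Mt1 and Mt2 ranked the livers identically within each group. In Chow the order from high to low was 4, 2, 1, 5 and 3, and in TM5614 it was 2, 3, 1, 5 and 4. The orders no longer matched once the trend on GC content and length was taken out. Chow 2 then stood at 361 CPM for Mt1 and 148 CPM for Mt2, against 360 and 212 CPM in Chow 1. For Mt1, TM5614 5 (120.1 CPM) then lay just above TM5614 1 (119.8 CPM). Together both genes took 0.0706% ± 0.0475 of all counts in Chow and 0.0196% ± 0.0125 in TM5614 (SD, n = 5). The share was highest in Chow 4, at 0.145% (95% Wilson interval 0.142-0.148), and lowest in TM5614 4, at 0.00865% (0.00806-0.00929). These intervals cover counting error only and are far narrower than the spread between mice. The ratio of Mt1 to Mt2, per length, was 2.03 ± 0.251 in Chow and 2.94 ± 0.642 in TM5614, with TM5614 2, at 1.92, inside the Chow range of 1.77-2.39 and the other TM5614 libraries above it. How reads matching both genes were assigned is not given in the sources used here.

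**Figure D2:**
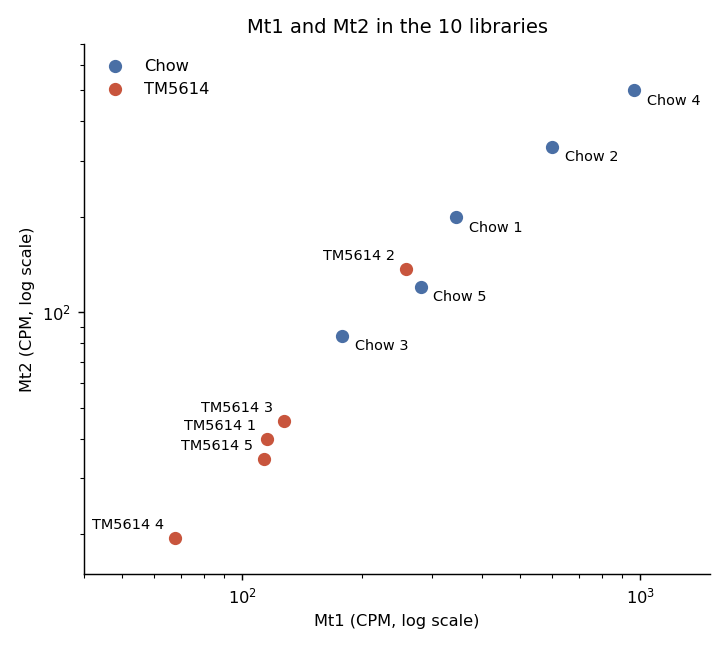
Mt1 against Mt2 in each library, in CPM on log axes. The 10 libraries fall along one rising band, with TM5614 2 among the Chow livers and TM5614 4 lowest for both genes.

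The fitted difference moved with single mice while its direction did not. TM5614 2 had the most muscle transcripts and the highest metallothionein level of its group. Without TM5614 2 the log2 fold change was -2.16 for Mt1 and -2.83 for Mt2, and Mt2 then passed the threshold. Mt2 also passed without Chow 2 (-2.04) and without Chow 3 (-2.38). Mt1 no longer passed without Chow 4, the highest library (-1.38), Chow 1 (-1.91), TM5614 1 (-1.74), TM5614 3 (-1.77), TM5614 4 (-1.63) or TM5614 5 (-1.74). With the replicate number as a block Mt1 did not pass (-1.63) and Mt2 did (-2.10).

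Mtf1, the zinc sensor (chr4:124802104-124849800, plus strand), varied little. It ranged from 20.0 to 27.3 CPM in Chow and from 23.2 to 24.9 CPM in TM5614, with a log2 fold change of -0.03 and a standard error of 0.11. All TM5614 values lay within the Chow range. Protein level and activity of MTF1 were not measured.

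Among importers, Slc39a14 encodes ZIP14, which carries zinc, iron and manganese into hepatocytes. Slc39a14 was measured at 132, 116, 192, 195 and 205 CPM in Chow 1 to 5 and at 144, 129, 167, 178 and 205 CPM in TM5614 1 to 5. The groups covered the same range, and the log2 fold change was -0.03 with a standard error of 0.18. Slc39a8, which encodes the related importer ZIP8, ranged from 16.1 to 46.7 CPM in Chow and from 29.0 to 38.5 CPM in TM5614, a log2 fold change of 0.19 with a standard error of 0.22. Chow 2 was its lowest library, and without Chow 2 the log2 fold change of Slc39a8 was 0.03. Chow 1 was its highest library, and without Chow 1 the value was 0.40 with a standard error of 0.18. Slc39a8 passed the threshold in neither fit.

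Slc39a7 encodes ZIP7, which releases zinc from the endoplasmic reticulum and Golgi. It stood at 65.7, 122, 71.0, 64.2 and 64.8 CPM in Chow 1 to 5 and at 75.4, 86.7, 72.1, 68.4 and 71.1 CPM in TM5614 1 to 5. Chow 2 stood apart from its group. After the trend on GC content and length was taken out, Chow 2 was at 82.1 CPM against 62.6-70.1 CPM in the other Chow libraries. The log2 fold change between groups was -0.05 with a standard error of 0.18, and its direction turned to 0.16 both without Chow 2 and after that correction.

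Among exporters, the Slc30a10 transcript was more abundant with TM5614. Slc30a10 (chr1:185454848-185468762, plus strand) belongs to the ZnT family and encodes a transporter known chiefly for exporting manganese from hepatocytes into bile. It was measured at 21.7, 14.6, 19.3, 8.24 and 11.8 CPM in Chow 1 to 5 and at 30.2, 36.7, 33.6, 42.8 and 23.2 CPM in TM5614 1 to 5. Every TM5614 library lay above every Chow library, the nearest being Chow 1 and TM5614 5. With the trend on GC content and length taken out the groups nearly met, with Chow 1 at 22.3 CPM and TM5614 5 at 22.4 CPM. The log2 fold change was 1.13 with a standard error of 0.24, or 2.19-fold. Counts per library were 52-375, against 594-6216 for Mt1 and 170-3448 for Mt2. In TM5614 4 the Slc30a10 count (375) exceeded that of Mt2 (170). Chow 4 was highest for Mt1 and Mt2 and lowest for Slc30a10, and in TM5614 4 the positions were exchanged. Not all libraries followed this. TM5614 2 was highest of its group for Mt1 and Mt2 and next to highest for Slc30a10. TM5614 5 was next to lowest for Mt1 and Mt2 and lowest for Slc30a10. Slc30a10 no longer passed the threshold without Chow 5 (1.05), TM5614 3 (1.13) or TM5614 4 (1.03).

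Slc30a1 encodes ZnT1, the exporter at the plasma membrane. It was present at 66.0, 44.4, 65.5, 73.5 and 54.8 CPM in Chow 1 to 5 and at 48.1, 57.0, 56.9, 62.4 and 50.0 CPM in TM5614 1 to 5. The TM5614 values all lay within the Chow range, and the log2 fold change was -0.15 with a standard error of 0.14. Chow 2 was its lowest library. With the trend on GC content and length taken out, Chow 2 stood at 66.9 CPM. The log2 fold change was then -0.29 with a standard error of 0.11. Without Chow 2 it was -0.25 with a standard error of 0.10. Slc30a1 passed the threshold in neither fit. The Slc30a1 promoter, shown above, holds the core letters on the minus strand.

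Slc30a7 encodes ZnT7, which loads zinc into the Golgi. It stood at 27.4-32.2 CPM in 4 Chow libraries, at 12.5 CPM in Chow 2 and at 27.6-31.3 CPM in TM5614. The trend on GC content and length raised Chow 2 to 24.7 CPM when removed. The log2 fold change was 0.17 with a standard error of 0.21, and it was -0.02 without Chow 2 and 0.02 after the correction.

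Per gene length, in deposited FPKM, metallothioneins were the most abundant of the 9 transcripts. Mt1 averaged 862 ± 572 FPKM and Mt2 439 ± 302 FPKM in Chow, with overlapping ranges, followed by Slc39a7 (32.0 ± 10.3) and Slc39a14 (31.9 ± 7.65), which also overlapped. Slc30a1 (11.5 ± 2.14) and Slc39a8 (7.56 ± 2.78) came next and overlapped, and Mtf1 (3.17 ± 0.378), Slc30a7 (2.87 ± 0.861) and Slc30a10 (2.56 ± 0.935) formed an overlapping lowest group. In TM5614 the range of Mt2 (97.6 ± 81.3 FPKM) reached down to that of Slc39a14 (31.2 ± 5.78). Slc30a10 (5.62 ± 1.24 FPKM) lay there above Slc30a7 (3.21 ± 0.196) and Mtf1 (3.11 ± 0.129) without overlap.

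**Figure D3:**
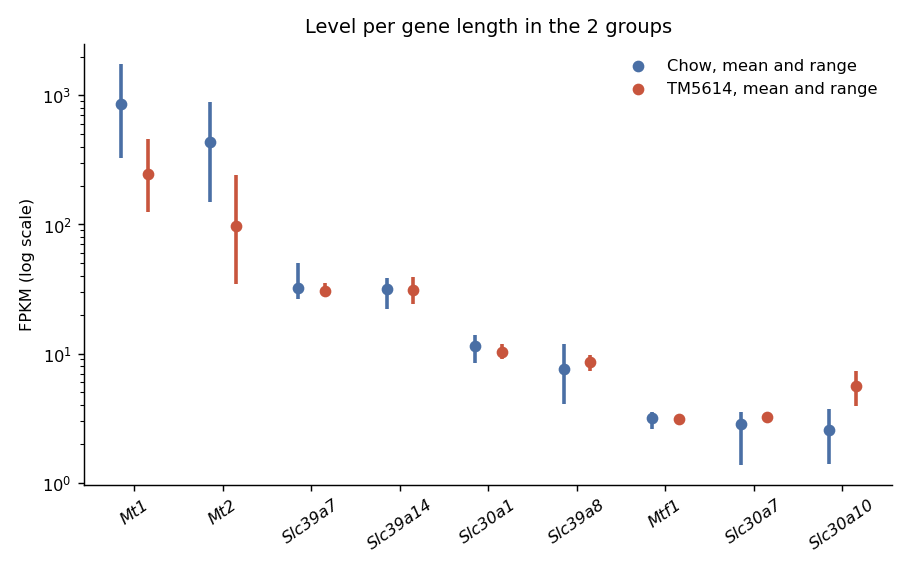
Deposited FPKM of the 9 genes on a log axis, ordered by the Chow mean; points are group means and lines run from the lowest to the highest of 5 libraries. Metallothioneins lie highest in both groups, and Slc30a10 moves from the lowest mean in Chow to above Slc30a7 and Mtf1 in TM5614.

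The other genes of the 3 families did not pass the threshold. Of 20 further metallothionein, ZIP and ZnT genes, 12 had enough counts and 0 passed in edgeR, DESeq2 or limma-voom with sample quality weights. In edgeR 2 of the 12 had an unadjusted p under 0.05, beside 2263 of all 11092 genes tested. These 2 were Slc39a4, which encodes a plasma membrane importer (log2 fold change -0.44, standard error 0.19, edgeR adjusted p = 0.213), and Slc39a6 (0.74, standard error 0.33, edgeR adjusted p = 0.237). Slc39a6 was low, at 7-36 counts per library. Its highest library was TM5614 2 (4.67 CPM), and TM5614 1 (1.01 CPM) lay below every Chow library. The median log2 fold change of the 12 was 0.16, against 0.01 over all genes tested, and the values ran from -0.44 to 0.74. Mt3 and Mt4 were too low to test. Mt4, known from stratified epithelia, had 14 counts in TM5614 2 and 0 in every other library.

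**Figure D4:**
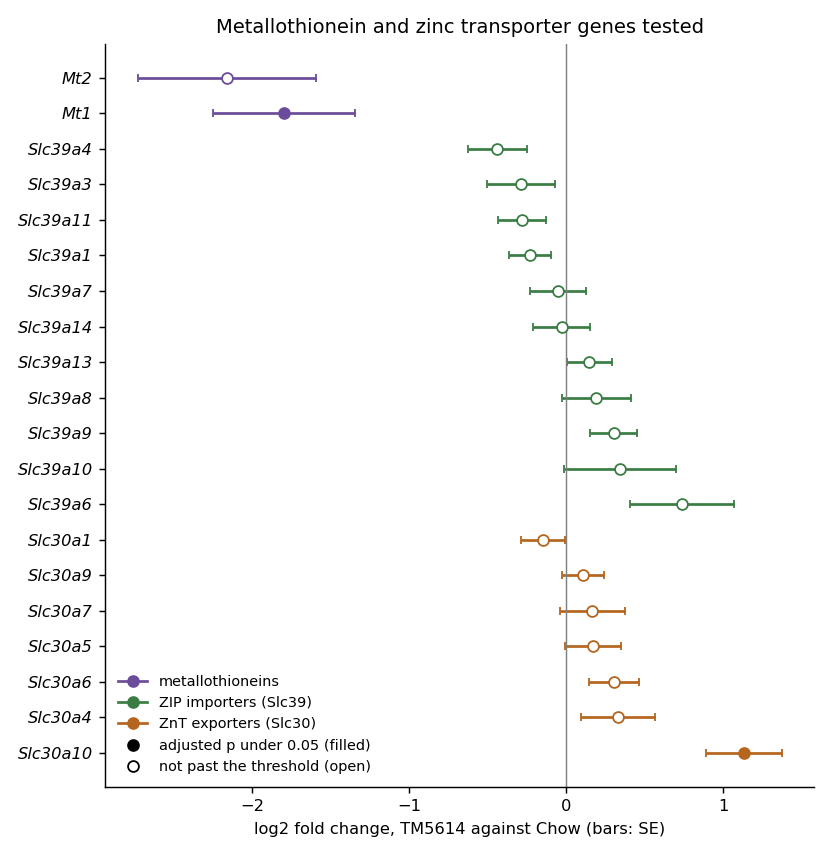
Log2 fold change, TM5614 against Chow, with its standard error, for the metallothionein, ZIP and ZnT genes tested; filled points passed an edgeR adjusted p of 0.05. Mt1 and Mt2 lie at -1.80 and -2.16, Slc30a10 at 1.13, and the other transporters between -0.44 and 0.74.

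Reported targets of MTF1 outside the metallothioneins, Slc30a1 among them, gave 0 of 7 tested genes past the threshold in edgeR, with 0 at an unadjusted p under 0.05 and a median log2 fold change of -0.04. Copper-handling genes gave 0 of 10, again with 0 at an unadjusted p under 0.05, and a median of -0.20. In the manganese-handling list Slc30a10 was the 1 of 8 genes to pass, and the median was 0.18. Of 12 oxidative stress genes controlled by NRF2, 1 passed, Srxn1, a sulfiredoxin (0.47, standard error 0.09, edgeR adjusted p = 0.0124).

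Acute-phase genes, which share cytokine control with metallothioneins, included several that were lower with TM5614. The 27 genes tested had a median log2 fold change of -0.28. In edgeR 12 of them had an unadjusted p under 0.05, beside 2263 of all 11092 genes tested. Of the 27, 7 passed as lower and 1 as higher in edgeR. Those lower were Saa1 (-3.99), Saa2 (-4.75), Orm1 (-1.03), Orm2 (-2.65), Lcn2 (-1.29), Apcs (-0.85) and Itih4 (-0.66), all plasma proteins secreted in inflammation. Hamp, which encodes the iron hormone hepcidin, was higher (1.35). Chow 4, the highest Chow library for Mt1 and Mt2, was also the highest for 5 of these 7 lower genes, but it was the lowest for Apcs (81.4 CPM) and next to lowest for Orm1 (517 CPM). In the glucocorticoid list of 14 genes, Per1 (-0.75) and Lcn2 were lower, Cdkn1a was higher (2.46) and the median was 0.02, with 7 of the 14 at an unadjusted p under 0.05 in edgeR.

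Markers of other cells were set beside these results. All 10 Kupffer cell markers had estimates below 0 and 0 passed in edgeR, with 0 at an unadjusted p under 0.05; their sum was 83.4-264 CPM in Chow and 83.2-178 CPM in TM5614. Neutrophil markers summed to at most 2.29 CPM in any library. With the trend on GC content and length taken out, the log2 fold change was -1.61 for Mt1 and -1.86 for Mt2. Without that correction the values were -1.80 and -2.16. Both genes passed the threshold with the correction, and neither passed when the replicate block was added to it. Beyond such fits and the libraries left out above, the part of base composition and of muscle RNA in the metallothionein difference was not tested. The part of Kupffer cells was not tested.

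**Figure D5:**
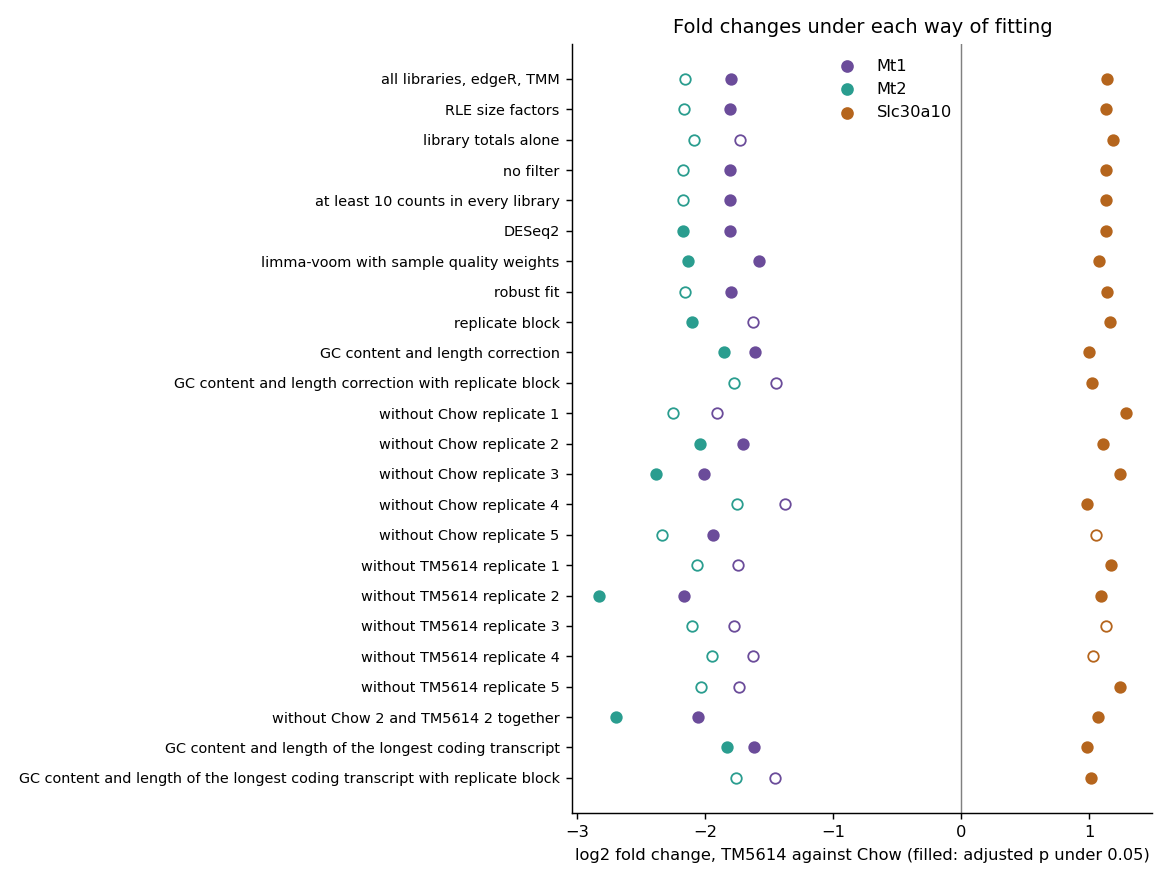
Log2 fold change, TM5614 against Chow, of Mt1, Mt2 and Slc30a10 under each way of fitting; filled points passed an adjusted p of 0.05. Mt1 stays between -2.16 and -1.38, Mt2 between -2.83 and -1.75 and Slc30a10 between 0.98 and 1.29, while the calls change.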

How the data were processed

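Liver mRNA was sequenced single-end after poly(A) selection, and STAR placed the reads on mm10, as the study's methods state. The gene annotation, tool versions and use of strand are not given in the sources used here. The deposited counts are raw whole numbers for each gene symbol. The deposited FPKM correct those counts for library and gene length and were used here only to compare levels between genes. Their regularised log2 values and their own DESeq2 comparison (fold changes and p-values) were not used.

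Samples were grouped by title. Members and gene lists were chosen with earlier results of these data known. The 9 members are named, list genes where they passed the threshold, and the 5 genes most like each of 3 patterns, of which 1 is not reported here. Genes were kept with filterByExpr, scaled with TMM and tested with edgeR 4.0.16 in R 4.3.3 (glmQLFTest, two-sided, 5 against 5, Benjamini-Hochberg adjustment over 11092 genes, threshold 0.05). CPM are TMM-scaled counts, and standard errors are the log2 fold change over the root of F. Alternatives were DESeq2 1.42.0, limma-voom with sample quality weights (limma 3.58.1), other scalings and filters, a replicate block, a spline correction for GC content and length (96.66% of tested genes had both) and each library left out. The fits were tested on simulated data. Coordinates came from GENCODE M21 on GRCm38. No pair of libraries of the same group agreed within sampling noise (lowest chi-square per degree of freedom 7.498), and pairs across groups were not compared.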

Additional observations from a re-analysis of the deposited data

Results flagged for a closer look

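In 4 of 22 groups of 5 libraries examined (11 measures), 1 library lay farther from the others than Dixon's 95% limit, where chance gives about 1 in 20, or 1.1 groups. Mt2 was 137 CPM in TM5614 2 against 19.4-45.6 CPM in the other TM5614 libraries. Mt1 and Mt2 together took 0.0411% of counts in TM5614 2 against 0.00865-0.0179% in the others. Slc39a7 was 122 CPM in Chow 2 against 64.2-71.0 CPM in the other Chow libraries. Slc30a7 was 12.5 CPM in Chow 2 against 27.4-32.2 CPM. The measures share libraries and are not independent.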

How the results depend on the processing

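The log2 fold changes of Mt1, Mt2 and Slc30a10 kept their direction in all 23 alternatives; Mt1 passed the threshold in 13, Mt2 in 9 and Slc30a10 in 20, and the other 6 members passed in 0. Against 499 genes changed, DESeq2 gave 908, limma-voom with sample quality weights 1386 and the GC content and length correction with replicate block 771; without the block that correction gave 716. Leaving out 1 library gave 235 (without TM5614 3) to 1031 (without Chow 2). Against 2 members called, library totals alone and the GC content and length correction with replicate block gave 1 each (Slc30a10), and leaving out 1 library gave 0 to 3. DESeq2, limma-voom with sample quality weights and the GC content and length correction without the block gave 3 each, with Mt2 added. Some alternatives were chosen after seeing the data. Without Chow 2 and TM5614 2 together, 1230 genes changed. The correction was first run with the longest transcript of each gene and, after its results had been seen, repeated with the longest coding transcript, which gave 775 genes and, with the replicate block, 813, with 3 and 1 members called. For Mt1 the longest transcript has 1085 bases and 1 exon, so its values corrected under the first rule rest on that model. The replicate block alone gave 555 genes and 2 members; same-numbered libraries correlated at 0.021 to 0.384 in their deviations, not above 0.1 in every pair, so the numbers were not taken as pairs. Depth limits the low transcripts, with 52 counts for Slc30a10 in its lowest library. The causes were not tested.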

Other observations

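Genes whose levels followed the members most closely were sought among 8589 genes over the 10 libraries, after group means were removed. These are descriptions across libraries that share depth and base composition, so no p is given. For the mean of Mt1 and Mt2 they were Gas7 (Pearson r 0.940), Ces1b (0.937), Hbs1l (0.904) and Casc3 (0.889). For Slc39a14 they were Tob2 (0.985), Gm14403 (0.983), Coq10b (0.962), Myo1e (0.953) and Ptp4a1 (0.948). For Slc30a10 they were Tigd2 (0.903), Asb13 (0.892), Pias1 (0.887), Surf2 (0.881) and Ppp2r5c (0.870). None of these 14 genes passed an edgeR adjusted p of 0.05 between the groups.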
